A study of Montastraea cavernosa with 311 samples.

Results

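The host transcripts described here are linked to DNA repair in the reef coral Montastraea cavernosa: Mcavernosa22577, named deoxyribodipyrimidine photo-lyase-like, and Mcavernosa03883, named nei endonuclease VIII-like 1 (NEIL1). They are 2 of 17901 host isogroups, and of 31276 isogroups in the table once those of the algal symbiont Cladocopium are counted. An isogroup is a set of assembled transcripts treated as 1 gene. Both were picked by name after earlier results had shown lower levels in mesophotic than in shallow natural colonies, so that contrast is given for them as a description with no test.

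Photolyases bind pyrimidine dimers, the lesions that ultraviolet light makes between neighbouring bases, and use the energy of visible light to split them. NEIL1 is a DNA glycosylase, characterised in mammals, that cuts oxidised pyrimidines and ring-opened purines out of DNA as the opening step of base excision repair. Shallow reef corals receive strong sunlight and host photosynthetic algae that release reactive oxygen, while mesophotic corals live in dim light where little ultraviolet penetrates.

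The data are tag-based RNA-seq counts, in which each transcript gives short reads near its 3′ end, from 311 libraries of total RNA. Of these, 265 are natural colonies sampled as shallow or mesophotic at 4 sites of the Gulf of Mexico and Belize, labelled WFGB, EFGB, PRTER and CBC. The other 46 carry a time label, 6 or 12 with no unit, and come from an experiment run at the first 2 of these sites. It had 3 arms, namely controls kept mesophotic, controls kept shallow, and transplants. The experiment's 28 colonies are named below by site and title tag, and 26 untimed libraries of the same colonies are also among the natural ones. Untimed libraries of the transplant colonies are all labelled mesophotic. Dates mentioned below are read from codes in the titles, and the titles of many WFGB, EFGB and PRTER libraries carry a colony number and no date. No cell type is labelled, and in such whole-tissue samples fewer cells of a type and less RNA per cell cannot be told apart.

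Levels are counts per 1000000 host counts (CPM). The 298 libraries with at least 20000 host counts were kept, with 20003 to 1145508 host counts and a median of 139933. At that median, 1 count is worth 7.15 CPM, and over all kept libraries it is worth 0.873 to 50.0 CPM. Low values therefore rest on 1 or a few counts, and a library listed at 0 does not show that the transcript was absent. A count of 0 allows up to 21.4 CPM (3 counts) at the median library. The kept natural libraries number 112 mesophotic and 141 shallow.

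The photolyase-like transcript was rare. It had at least 1 count in 43 of 253 natural libraries, or 17.0%, with a mean of 17.3 CPM ± 86.3 (SD). Its median was 0, and it ranked in the top 27.7% of host isogroups by the number of libraries that detect it. NEIL1 was found in 147 of the 253 libraries, or 58.1%, with a mean of 96.4 CPM ± 297 (SD), a median of 12.7 and a highest value of 3442. It ranked in the top 6.0% by detection, so most host isogroups are sparser than either transcript.

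The shallow colonies carried 1706 of the 1746 photolyase-like counts. At WFGB it was seen in 12 of 35 shallow libraries and 2 of 28 mesophotic ones, with a median of 0 in both groups and highest values of 150.7 and 82.8 CPM. At EFGB the counts were 12 of 39 shallow and 1 of 21 mesophotic libraries, reaching 246.4 and 7.14 CPM. Both of these sites had few mesophotic libraries with any count, and the single EFGB one held 5 counts. At PRTER, 8 of 31 shallow libraries had the transcript, up to 800.9 CPM, against 4 of 41 mesophotic ones, up to 216.1 CPM. CBC had it in 4 of 36 shallow libraries, up to 954.5 CPM, and in 0 of 22 mesophotic ones. Those 22 libraries together allow a mean of up to 0.724 CPM, counting error only.

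**Figure D1:**
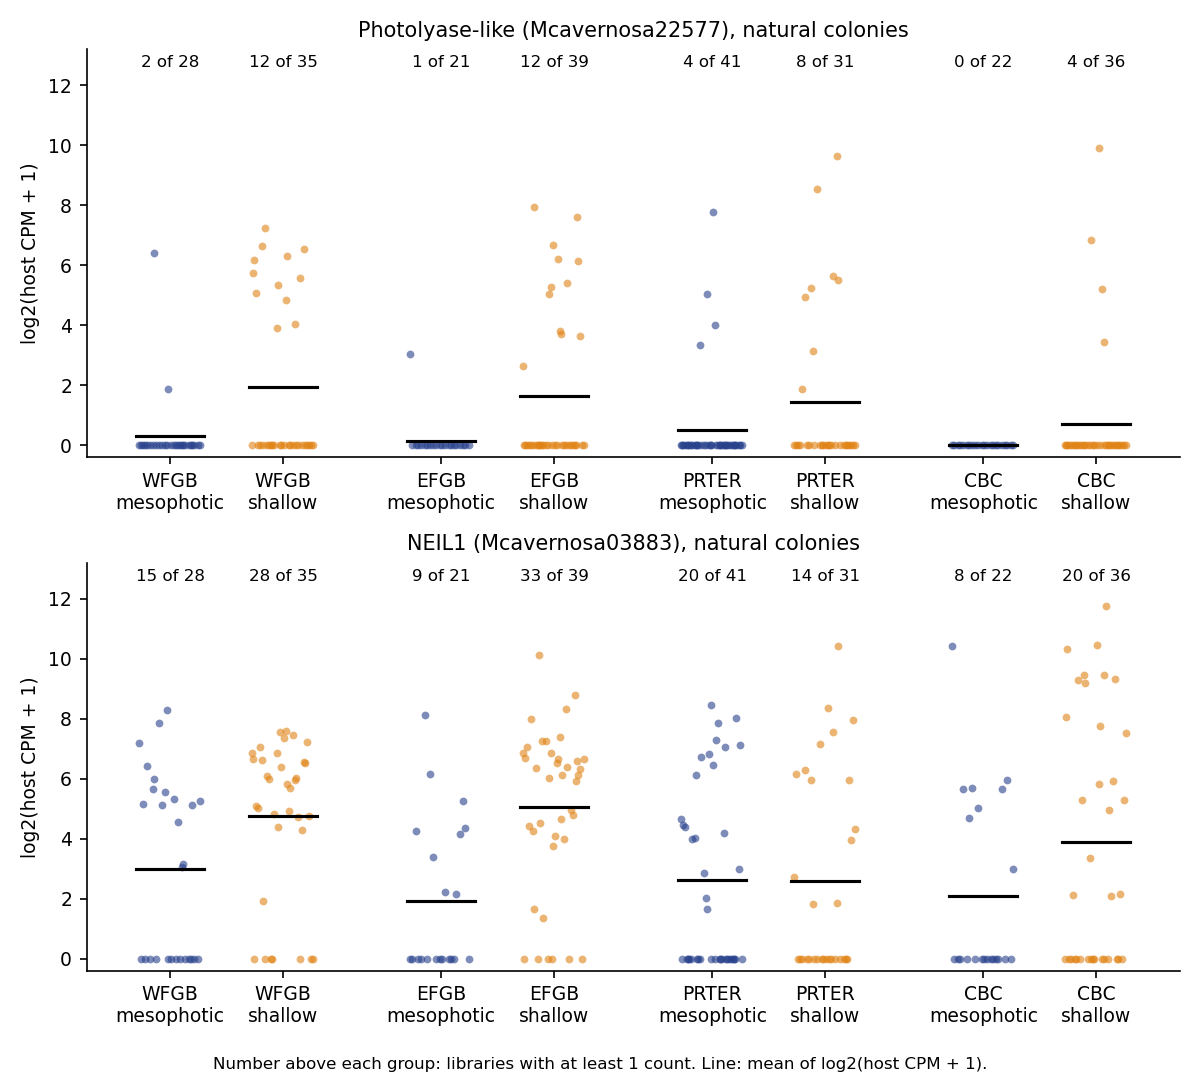
Each point is 1 natural library, with log2(host CPM + 1) on the y axis by site and depth, the black line the mean, and the fraction above each group the libraries with at least 1 count. Photolyase-like points lie mostly at 0, with 4 of 36 CBC shallow libraries and 0 of 22 mesophotic ones above it, while NEIL1 is above 0 in 33 of 39 EFGB shallow libraries.

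NEIL1 was found in most shallow libraries of WFGB and EFGB and in about the same share of both depths at PRTER. At WFGB, 28 of 35 shallow libraries detected it, with a median of 55.2 and a highest value of 193.7 CPM. The mesophotic libraries of WFGB detected it in 15 of 28 cases, with a median of 7.66 and a highest value of 311.3 CPM. At EFGB, 33 of 39 shallow libraries had it, at a median of 68.7 and up to 1117 CPM, against 9 of 21 mesophotic ones with a median of 0 and up to 281.8 CPM. The ranges overlapped at every site, and the single highest WFGB library was mesophotic.

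Of the PRTER libraries, 14 of 31 shallow and 20 of 41 mesophotic ones had NEIL1, and both medians were 0. The highest PRTER values were 1370 CPM in a shallow library and 354.1 CPM in a mesophotic one. At CBC, 20 of 36 shallow libraries had it, with a median of 3.43 and a highest value of 3442 CPM. The mesophotic libraries of CBC had it in 8 of 22 cases, with a median of 0 and a highest value of 1385 CPM.

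**Figure D2:**
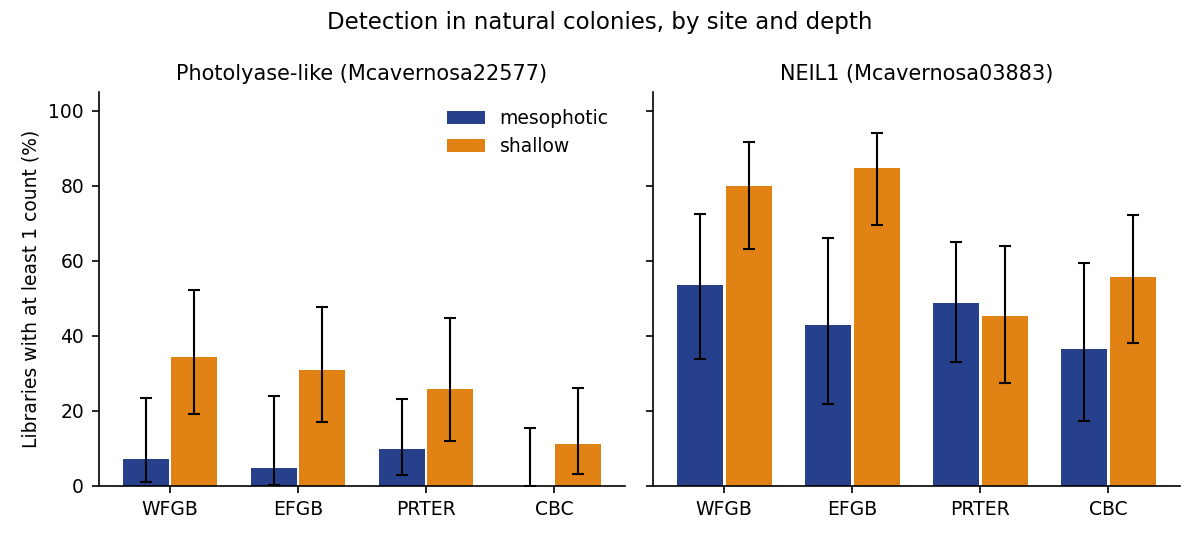
Bars give the percentage of natural libraries with at least 1 count of each transcript by site, for mesophotic and shallow colonies, and the lines are exact 95% Clopper-Pearson intervals. The photolyase-like bars are lower in mesophotic colonies at all 4 sites (6.25% against 25.5% over the sites), and the NEIL1 bars at PRTER are 48.8% mesophotic and 45.2% shallow.

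Over the 4 sites, the photolyase-like transcript was detected in 7 of 112 mesophotic libraries (6.25%, 95% Clopper-Pearson interval 2.55% to 12.5%) and 36 of 141 shallow ones (25.5%, 18.6% to 33.6%). Its mean was 3.26 CPM ± 22 (SD) in mesophotic and 28.5 ± 112.8 (SD) in shallow colonies. NEIL1 was detected in 52 mesophotic libraries (46.4%, 37% to 56.1%) and 95 shallow ones (67.4%, 59% to 75%). Its mean was 45.1 CPM ± 144.9 (SD) in mesophotic and 137.2 ± 372.0 (SD) in shallow colonies. Scaled down to 20000 host counts in each library, the photolyase-like transcript would be expected in 2.68% of mesophotic and 16.1% of shallow libraries, and NEIL1 in 28.6% and 48.7%.

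A few libraries held much of each transcript. The 4 natural libraries richest in the photolyase-like transcript held 82.9% of its counts, and all 4 were shallow. Replicate 33 of the CBC shallow colonies alone had 907 of the 1746 counts, followed by PRTER shallow replicates 28 and 21 with 301 and 125 counts and EFGB shallow replicate 12 with 115. For NEIL1, 6 shallow libraries held 50.2% of 5594 counts, led by PRTER shallow replicate 7 with 928 and CBC shallow replicate 19 with 567. The highest NEIL1 level, 3442 CPM, came from CBC shallow replicate 16, where 418 counts were found in a library with 602 host isogroups detected. The SDs given above are larger than the means for this reason.

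The log2 CPM scale fitted by limma adds a prior count scaled to each library's host total, so libraries without a count all get the same value. On that scale the photolyase-like transcript was 0.59 lower in mesophotic than shallow colonies (−0.59 ± 0.14, SE, mean over the 4 sites). The site values were −0.77 ± 0.28 at WFGB, −0.72 ± 0.30 at EFGB, −0.50 ± 0.26 at PRTER and −0.37 ± 0.30 at CBC. For NEIL1 the mean over sites was −1.0 ± 0.24 (SE). Its site values were −0.93 ± 0.48 at WFGB, −1.76 ± 0.51 at EFGB, −0.08 ± 0.45 at PRTER and −1.23 ± 0.51 at CBC. These values were used to choose the transcripts and carry no test. In the same comparison 0.543% of 6629 isogroups passed an adjusted p of 0.05, or 0.498% counting the lower ones alone, and the median of all isogroups was −0.13.

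With at least 100000 host counts per library the photolyase-like difference was −1.08. edgeR's count model gave −2.84 at WFGB, −3.69 at EFGB and −3.94 at PRTER. At CBC, where every mesophotic library is at 0, no finite size can be estimated from the counts. For NEIL1 edgeR gave 0.49 at WFGB, the opposite sign to limma's, −1.87 at EFGB, −1.56 at PRTER and −2.51 at CBC. Leaving out any 1 natural library kept limma's photolyase-like value over the sites between −0.62 and −0.54, and that of NEIL1 between −1.07 and −0.95.

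**Figure D3:**
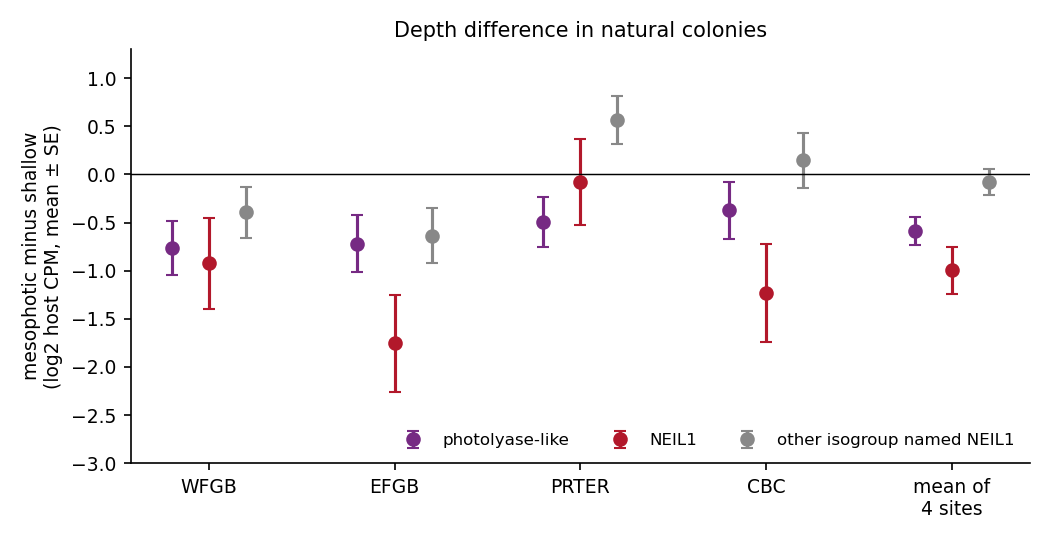
Points are mesophotic minus shallow differences in log2 host CPM and lines are standard errors, by site and as the mean of the 4 sites, for both transcripts and for the other isogroup named NEIL1. All points of the photolyase-like transcript lie below 0 (the CBC one against mesophotic libraries all at 0), NEIL1 is at −0.08 at PRTER and −1.76 at EFGB, and the other isogroup is at −0.08 over the sites.

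The depth difference was also read within dates and barcode runs, as a description of the libraries used to choose the transcripts. Barcode runs are stretches of library numbers in which no barcode pair repeats, an inferred grouping. Of the 4 combinations of site and title date that held both depths, all 4 detected the photolyase-like transcript in a smaller share of mesophotic libraries, and 3 had a lower mesophotic mean CPM. The libraries with no date in the title, at 3 sites, had both the smaller mesophotic share and the lower mesophotic mean at all 3. In 13 combinations of site and run, 11 had the smaller mesophotic share and 12 the lower mesophotic mean. NEIL1 was detected in a smaller mesophotic share in 3 of the 4 dated combinations, 1 of the 3 undated ones and 9 of the 13 runs, with 1 run equal. Its mean was lower in mesophotic colonies in 2 of 4 dated combinations, all 3 undated ones and 11 of 13 runs.

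Libraries dated X-14 hold shallow WFGB and EFGB colonies alone, so for them date and depth cannot be told apart. NEIL1 was in 43 of 47 of these libraries (91.5%), against 52 of 94 other shallow libraries (55.3%) and 52 of 112 mesophotic ones (46.4%). At WFGB all 22 libraries of that date had NEIL1, while among the WFGB libraries with no date in the title it was in 4 of 11 shallow and 9 of 21 mesophotic ones. The photolyase-like transcript was in 17 of the 47 (36.2%), in 19 of the 94 (20.2%) and in 7 of the 112 (6.25%). Without this date the fitted depth difference was −0.53 for the photolyase-like transcript and −0.82 for NEIL1.

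Detection also moved with the number of host isogroups that a library contains. Libraries with NEIL1 had a median of 3202 host isogroups and 78934 host counts, and those without had 1628 and 198676. For the photolyase-like transcript the medians were 2592 and 1947 host isogroups. Among libraries with under 2000 host isogroups, the photolyase-like transcript was in 2 of 61 mesophotic and 10 of 60 shallow libraries. Between 2000 and 4000 isogroups it was in 4 of 36 and 14 of 41, and above 4000 in 1 of 15 and 12 of 40. Shallow libraries had the larger share in each range.

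For NEIL1 the share was larger in libraries with more isogroups at both depths. It was found in 22 of 61 mesophotic and 28 of 60 shallow libraries with under 2000 host isogroups. The counts were 18 of 36 and 29 of 41 in the middle range and 12 of 15 and 38 of 40 above 4000. With the number of isogroups as a covariate the fitted depth differences were −0.56 for the photolyase-like transcript and −0.85 for NEIL1.

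**Figure D4:**
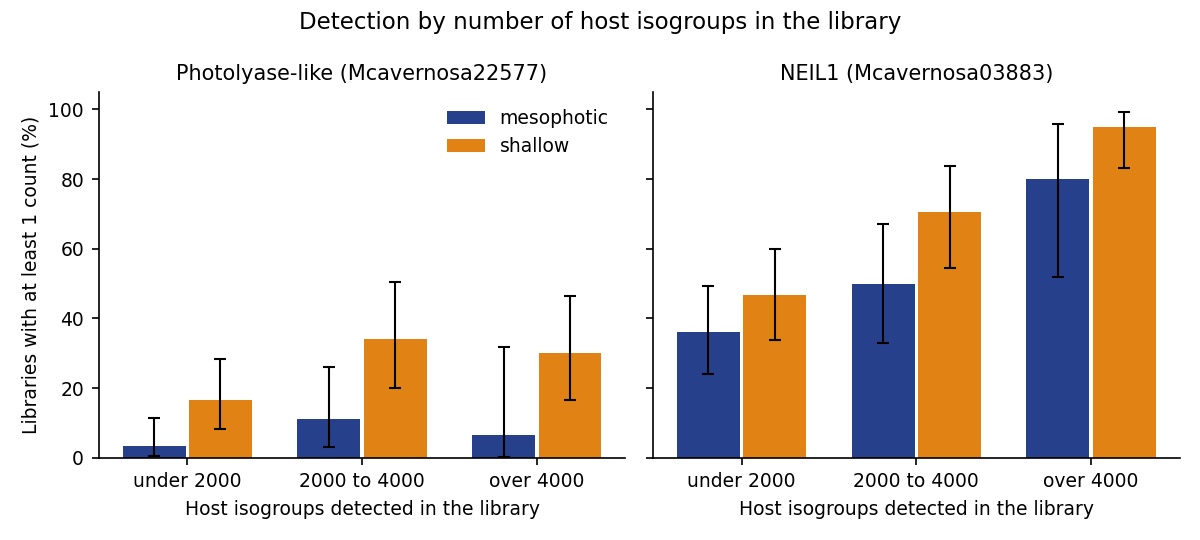
Bars give the percentage of natural libraries with at least 1 count, by how many host isogroups the library contains, for mesophotic and shallow colonies, with exact 95% Clopper-Pearson intervals. NEIL1 goes from 36.1% to 80.0% of mesophotic libraries between the ends of the range, and the photolyase-like transcript stays between 3.28% and 11.1% of them.

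Whether the depth difference was unequal between sites was tested, because the transcripts were chosen for the direction of the difference. The test is built from the same site values, so it is not fully separate from that choice. Neither passed limma's F test: F was 0.413 for the photolyase-like transcript (adjusted p = 0.833) and 2.21 for NEIL1 (adjusted p = 0.249), while 6.22% of all isogroups tested did. The spread of the NEIL1 values from −0.08 to −1.76 was thus not beyond their errors in this test. The edgeR test on the counts did call the photolyase-like transcript for depth by site, at an adjusted p of 0.00844, and called 60.9% of the 6629 isogroups. That call includes CBC, with all its mesophotic libraries at 0.

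Levels between sites did not pass the limma F test for either transcript, with F of 0.977 (adjusted p = 0.435) for the photolyase-like one and 1.09 (adjusted p = 0.386) for NEIL1. This comparison called 72.2% of all isogroups in limma. The edgeR test called both transcripts, at adjusted p of 4.61e-05 and 0.00297, and 77.7% of all isogroups, so the call sets neither apart from most. By mean CPM over both depths the photolyase-like transcript ran from PRTER at 22.5 ± 106.1 (SD, 72 libraries) through CBC at 19.2 ± 125.9 (58) and EFGB at 14.0 ± 43.3 (60) to WFGB at 12.8 ± 30.5 (63). By detection the order was another, with WFGB at 22.2%, EFGB at 21.7%, PRTER at 16.7% and CBC at 6.9%. NEIL1 had its highest mean at CBC, 206.8 CPM ± 550.5 (SD), followed by EFGB at 76.9 ± 162.0, PRTER at 60.7 ± 176.1 and WFGB at 54.4 ± 66.8. It was detected in 70.0% of EFGB, 68.3% of WFGB, 48.3% of CBC and 47.2% of PRTER libraries. These SDs give the scatter of single libraries and not the error of a mean, so the orders of means are a description.

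EFGB and WFGB share their barcode runs, and the difference between them was −0.11 ± 0.20 (SE, adjusted p = 0.697 by limma) for the photolyase-like transcript. For NEIL1 it was −0.20 ± 0.35 (SE, adjusted p = 0.689). The 95% intervals ran from −0.52 to 0.29 and from −0.89 to 0.48, while 25.7% of isogroups passed, nearly all lower at EFGB, and the median of all isogroups was −0.34. With TMM scaling, which moves that median by 0.22, the NEIL1 difference turned to 0.07.

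NEIL1 was in 58.1% of natural libraries, so some sharing with the photolyase-like transcript follows from that alone. Of the 43 natural libraries with the photolyase-like transcript, 32 also had NEIL1 (74.4%), which is 21.8% of the 147 libraries with NEIL1. Among libraries without the photolyase-like transcript NEIL1 was in 54.8%. These shares pool depths and sites. Over all shallow libraries NEIL1 was in 80.6% of those with the photolyase-like transcript and 62.9% of those without. Over all mesophotic libraries the shares were 42.9%, from 3 libraries with both, and 46.7%. In EFGB shallow colonies all 12 libraries with the photolyase-like transcript had NEIL1, against 77.8% of those without. The share was also larger with it at both depths of PRTER. It was smaller with it in shallow WFGB and CBC colonies and in mesophotic WFGB and EFGB colonies. None of these differences was tested. Across the 253 libraries the log2 CPM values of both transcripts had a Pearson r of 0.09, and libraries share depth and number of isogroups in any such value.

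Among 5059 named host isogroups, those most like the photolyase-like transcript over these libraries were an ALG6 glucosyltransferase homolog, with a Pearson r of 0.32, and Alternative oxidase, a mitochondrial enzyme that bypasses part of the respiratory chain, at 0.31. Traf interacting protein, DPH2 homolog and Heme binding protein 2 followed at 0.27, 0.27 and 0.27. For NEIL1 the nearest was methionine sulfoxide reductase A, which repairs oxidised methionine in proteins, at 0.42. Adenosylhomocysteinase at 0.37, Eukaryotic translation initiation factor 4 gamma at 0.34, ribosomal protein S7 at 0.33 and ARP2 homolog at 0.32 came next. These values describe the libraries and carry no p.

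A further host isogroup, Mcavernosa03887, has the same NEIL1 name. It is sparser, with 489 counts in 106 natural libraries and a mean of 16.6 CPM ± 63.5 (SD). It was detected in 45 mesophotic and 61 shallow libraries, 40.2% and 43.3%. Its fitted depth difference was −0.08 ± 0.14 (SE, adjusted p = 0.799 by limma), and it turned to 0.01 with TMM scaling and 0.64 with edgeR (adjusted p = 0.175). Its site values ran from −0.64 at EFGB to 0.56 at PRTER (adjusted p = 0.463). At PRTER edgeR gave 3.62, mesophotic higher (adjusted p = 1.85e-05), where it called 32.1% of all isogroups. A single PRTER mesophotic library, replicate 32, held 243 of the 489 counts (939.5 CPM), and its part in these values was not tested. The inequality of this isogroup's depth difference between sites had an adjusted p of 0.0704 in limma, 0.0431 with RLE scaling and 0.143 with TMM scaling. By edgeR it was 9.19e-05, where 60.9% of all isogroups passed, and with RLE scaling 9.07% of them did. The difference between both isogroups was not tested. They occurred together in 74 libraries, 50.3% of those with Mcavernosa03883 and 69.8% of those with Mcavernosa03887, with a Pearson r of 0.10. Its level differed between sites (F = 13.0, adjusted p = 3.16e-07 by limma), as did that of 72.2% of all isogroups. How reads shared by similar transcripts were counted is not stated in the labels or files, so the division of counts between this pair is uncertain.

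Of the other host members of the photolyase and cryptochrome family, 3 were frequent enough to test. Cryptochromes resemble photolyases but act as blue light receptors or clock proteins rather than in repair. Mcavernosa10901, Cryptochrome 1 (Photolyase-like), was the most frequent, in 174 natural libraries with a mean of 402.6 CPM. Its depth difference over the sites was −0.23 ± 0.35 (SE, adjusted p = 0.77 by limma). The inequality of this isogroup's depth difference between sites passed limma's F test (adjusted p = 0.00941), as did that of 6.22% of all isogroups. Its depth difference was −2.38 ± 0.74 at EFGB, where it also passed the depth test (adjusted p = 0.0202), as did 16.4% of all isogroups. At CBC it was 1.95 ± 0.74 (adjusted p = 0.483). With TMM scaling the adjusted p was 0.057 for that inequality and 0.115 for depth at EFGB, and with edgeR 0.29 and 0.379. The value over the sites turned to 0.02 with edgeR.

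Mcavernosa06112, FAD binding domain of DNA photolyase, gave −0.34 ± 0.23 over the sites (SE, adjusted p = 0.477 by limma). It also passed for an unequal depth difference between sites (adjusted p = 0.0265), as did 6.22% of all isogroups. Its values ran from −1.54 ± 0.45 at WFGB (adjusted p = 0.073) to 0.73 ± 0.49 at CBC, and neither of these passed. The WFGB value passed with RLE scaling (adjusted p = 0.0387) and not with TMM scaling (adjusted p = 0.313). By edgeR both passed, where 8.37% of all isogroups did at WFGB and 33.2% at CBC. The edgeR test also called this isogroup at EFGB (3.68, adjusted p = 0.00176) and at PRTER (−3.87, adjusted p = 0.000234). There 32.6% and 32.1% of all isogroups passed by edgeR. Limma gave 0.50 at EFGB (adjusted p = 0.46) and −1.05 at PRTER (adjusted p = 0.393). Mcavernosa01532, named cryptochrome, gave −0.26 ± 0.26 over the sites (adjusted p = 0.638) and 0.20 with edgeR. The remaining 3 host relatives were in 6 to 15 natural libraries each. In the symbiont, 8 isogroups with photolyase, cryptochrome or PHR domain names were in at most 7 of the 311 libraries each.

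Among glycosylases, which start base excision repair by removing a damaged base, the Nth endonuclease III-like 1 isogroup was the other one tested. It (Mcavernosa11608) was in 27 mesophotic and 50 shallow libraries, with a depth difference of −0.22 ± 0.13 (SE, adjusted p = 0.418 by limma). N-methylpurine-DNA glycosylase was in 17 natural libraries, the SMUG1 uracil glycosylase in 3 and the MutY homolog in 2, too few for a test.

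A wider list of 162 host isogroups was matched by words in their names to photolyases, base and nucleotide excision repair, mismatch repair, and double strand break repair. The words also caught isogroups with other roles, such as DDB1 and CUL4 associated factors. Beside both transcripts, 60 of them were tested in natural colonies. None passed for depth over the sites by limma, at 0.543% of all isogroups, and 11 (18.3%) had an unadjusted p under 0.05, against 14.5% of all isogroups. By edgeR 9 of the 60 passed as lower and 3 as higher, 20.0% together, where 15.9% of all isogroups passed as lower and 11.3% as higher. These shares are near or under those of all isogroups. The list had 90.0% of its values below 0 against 75.5% of all isogroups, with medians of −0.15 and −0.13. At EFGB alone 14 of the 60 (23.3%) passed limma's test as lower in mesophotic colonies, where 15.9% of all isogroups did, and none passed as higher. Those 14 included 4 excision repair cross-complementing isogroups of nucleotide excision repair, the damage-sensing kinase Ataxia telangiectasia and Rad3 related (−0.91 ± 0.26, adjusted p = 0.0137) and MRE11, a nuclease that processes DNA ends (−0.69 ± 0.20, adjusted p = 0.0146). With TMM scaling 2 of the 60 passed as lower at EFGB, Ataxia telangiectasia and Rad3 related and MRE11, where 3.79% of all isogroups did. Their differences were then −0.46 and −0.31, and both are named here after their values were seen.

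In each group of the list the isogroup with the smallest p for depth was taken. APEX1 (Mcavernosa34634), the endonuclease that cuts DNA where a glycosylase has removed a base, gave −0.59 ± 0.29 (adjusted p = 0.331) and was in 48 mesophotic and 78 shallow libraries. MMS19, a factor for iron-sulfur proteins of excision repair, gave −0.23 ± 0.08 (adjusted p = 0.196). XRCC6 binding protein 1 gave −0.32 ± 0.11 (adjusted p = 0.179), and the mismatch protein MutS homolog 6 gave −0.11 ± 0.25 (adjusted p = 0.858). None of these 4 passed limma's test.

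In the experiment the photolyase-like transcript was seen in 8 of 45 timed libraries. The question this arm of the study asks is how expression moves over time under different depth treatments. Among transplants it was in WFGB69 at time 6 with 391.9 CPM (84 counts), in WFGB54 at time 6 with 191.1 CPM (39 counts) and in WFGB68 at time 12 with 24.7 CPM (9 counts). The other 10 transplant libraries, and all 7 untimed transplant libraries kept, had 0. WFGB69 and WFGB54 were both at 0 at time 12. WFGB54 was also at 0 untimed, while the untimed WFGB69 library fell under the minimum of host counts.

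Of the mesophotic controls, WFGB176 had 27.5 CPM (19 counts) and WFGB179 had 24.2 CPM (1 count) at time 6, and the other 11 timed libraries had 0. Among shallow controls, EFGB187 had 97.0 CPM (42 counts) and WFGB119 had 20.5 CPM (1 count) at time 6, and WFGB120 had 13.8 CPM (1 count) at time 12, with 16 libraries at 0. The arms overlapped, since most libraries in each were at 0, and the highest timed value of all was in a transplant. EFGB187 was the only colony with the transcript both untimed, at 192.3 CPM, and at a time point.

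NEIL1 was seen in 32 of the 45 timed libraries, in 16 of 19 shallow controls, 9 of 13 transplants and 7 of 13 mesophotic controls. In the shallow controls at time 6 the lowest value was 0, the median 21.9 and the highest 172.9 CPM over 10 libraries. At time 12 these were 0, 13.8 and 357.4 CPM over 9 libraries. The untimed libraries of the same arm had NEIL1 in 7 of 9 cases with a median of 59.5 CPM.

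In WFGB mesophotic controls NEIL1 was found in 1 of 5 libraries at time 6, WFGB176 with 69.4 CPM. At time 12 all 5 had it, with WFGB177 at 396.5, WFGB176 at 117.1, WFGB178 at 78.9, WFGB180 at 64.6 and WFGB179 at 21.2 CPM. These levels rest on 10, 6, 3, 4 and 1 counts. The libraries at time 12 had a median of 47169 host counts and 4457 host isogroups, against 230869 and 2264 at time 6. The part of these in the result was not tested. The 3 timed EFGB mesophotic libraries had 36.4 CPM in EFGB60 at time 6 and 0 in EFGB192 at time 6 and EFGB194 at time 12.

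Transplants had NEIL1 at time 6 in EFGB74 with 207.5, WFGB52 with 205.0, WFGB54 with 196.0, EFGB57 with 116.7 and WFGB69 with 4.67 CPM. WFGB53, WFGB68 and EFGB71 had 0. At time 12 the values were 515.7 CPM in EFGB57, which held 377 counts, 41.8 in WFGB69, 18.7 in WFGB54, 10.3 in EFGB72 and 0 in WFGB68. High and low libraries were mixed at both times and sites. Of 4 transplant colonies measured at both times, 3 had NEIL1 at both and 1 at neither.

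**Figure D5:**
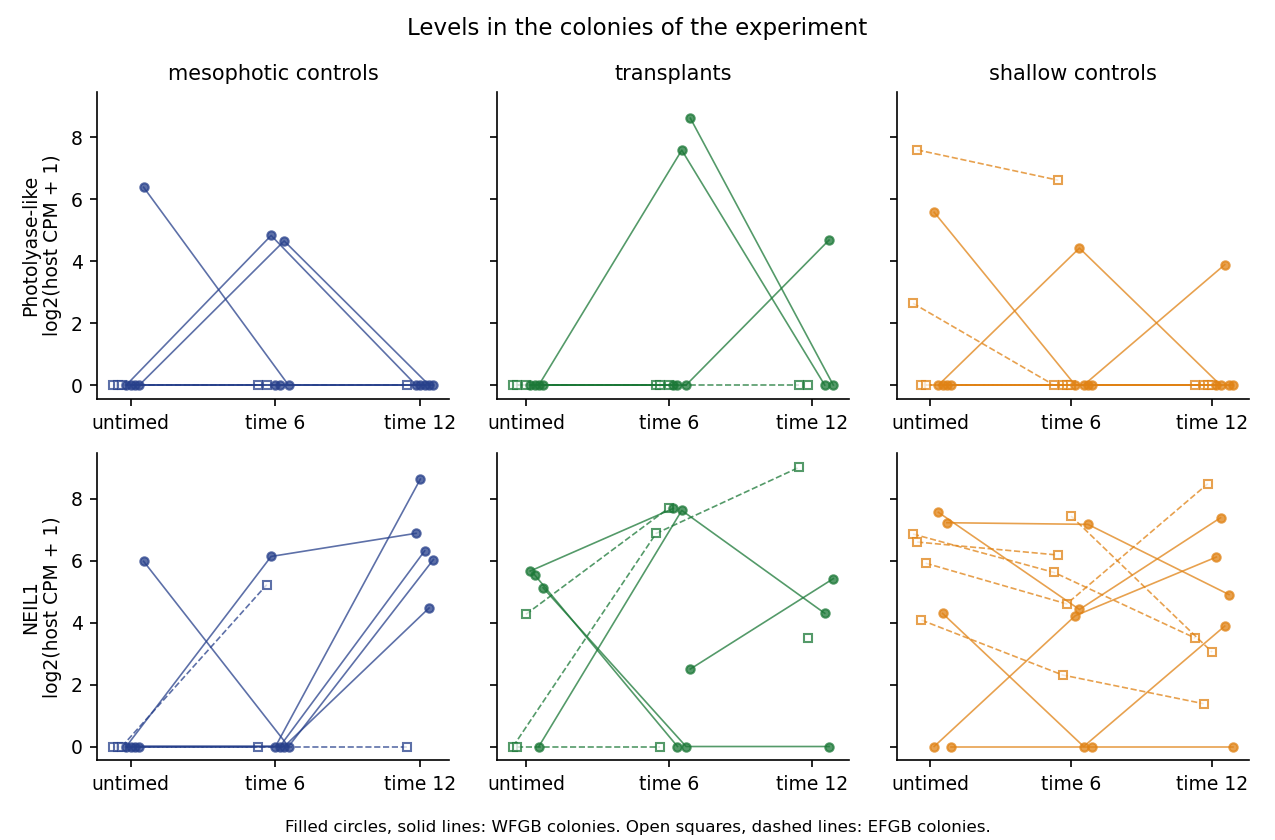
Each line joins the libraries of 1 colony, untimed, at time 6 and at time 12, with log2(host CPM + 1) on the y axis, by arm and transcript, and lines pass over a time with no library kept. The photolyase-like transcript lies at 0 in all but 8 of 45 timed libraries, and NEIL1 is above 0 in all 5 WFGB mesophotic controls at time 12.

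No comparison of the experiment passed limma's test for either transcript. Transplants were 0.57 ± 0.46 (SE) above mesophotic controls for the photolyase-like transcript, with a 95% interval from −0.35 to 1.49 (adjusted p = 0.717), and 0.36 ± 0.70 for NEIL1, from −1.02 to 1.75 (adjusted p = 0.895). In this comparison 0.014% of 7161 isogroups passed. Against shallow controls the values were 0.44 ± 0.42 (adjusted p = 0.929) and 0.24 ± 0.64 (adjusted p = 0.969), where 0.0% passed, or 351 isogroups at an unadjusted p under 0.05. Both transplant comparisons share the transplant libraries. Leaving out WFGB69 at time 6 brought the photolyase-like difference from mesophotic controls to 0.26.

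Mesophotic minus shallow controls is a depth contrast in timed libraries, which the choice of transcripts did not use. Untimed libraries of most of the same colonies were among those used, so the contrast is not fully separate. It gave −0.13 ± 0.42 (SE, adjusted p = 0.991 by limma) for the photolyase-like transcript. Its 95% interval ran from −0.97 to 0.71, which includes no difference as well as the natural depth value of −0.59. For NEIL1 the contrast gave −0.12 ± 0.64 (adjusted p = 0.991), with an interval from −1.39 to 1.14 that includes no difference and −1.0. Here too 0.0% of isogroups passed in limma, with 399 at an unadjusted p under 0.05, and edgeR called 356.

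Arm and time together gave an F of 1.05 for the photolyase-like transcript (adjusted p = 0.862) and 0.998 for NEIL1 (adjusted p = 0.868) in limma, with 0.307% of isogroups called. The edgeR test called the photolyase-like transcript here, at an adjusted p of 0.00977, and called 44.3% of isogroups. The change from untimed libraries in transplants beyond that in mesophotic controls was 0.95 ± 0.75 (adjusted p = 0.658) and −0.51 ± 1.14 (adjusted p = 0.892) in limma. There 0.0% of isogroups passed, or 779 at an unadjusted p under 0.05, and edgeR called 347.

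With 1 mean per colony over its timed libraries, 8 mesophotic control, 10 shallow control and 9 transplant colonies were compared by exact 2-sided permutation within sites. The adjusted p was 0.85 in all 6 tests, over both transcripts and all 3 pairs of arms. Transplants exceeded mesophotic controls by 0.47 on the log2 scale for the photolyase-like transcript (exact p = 0.286) and by 0.62 for NEIL1 (exact p = 0.479). Of the other repair isogroups, 68 were tested in the experiment and none passed limma's test in any of these comparisons. Those at an unadjusted p under 0.05 were 3 to 6 in each comparison (4.41% to 8.82%), against 4.9% to 10.9% of all isogroups. By edgeR 5 of the 68 passed between controls (7.35%, against 4.97% of all isogroups), 5 for the change from untimed libraries (7.35% against 4.85%) and 34 for arm and time (50.0% against 44.3%). Transplants gave 19.1% against 10.4% beside mesophotic controls and 17.6% against 11.3% beside shallow controls. By direction, 11 were lower and 2 higher in transplants than in mesophotic controls, and 8 lower and 4 higher than in shallow controls. The 5 between controls were all higher in mesophotic ones, and the change from untimed libraries had 4 lower and 1 higher.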

How the data were processed

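The deposited values are raw counts, 1 per isogroup and library in a single table from the authors, with a lookup table of gene names. The design text ties the names to UniProt. How reads were aligned, filtered or deduplicated is not given in the sources used here. All 311 libraries matched a column, and 1 unnamed empty column was not used. No sequence was used.

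Groups come from the site, depth and time labels, and colonies from title tags. Nothing states how colonies were subsampled, so p-values measure the spread between these libraries. Both transcripts and all gene lists were chosen with earlier results of these data known. Named genes are both transcripts, their families by name, the isogroup of smallest depth p in each other repair group, and the 5 most correlated named isogroups.

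Host counts were scaled to the host total of each library. The minimum of 20000 host counts left 253 natural libraries and 69 for the experiment. limma 3.58.1 (R 4.3.3; trend, robust) was fitted to log2 CPM (prior count 2) of isogroups detected in 10% of libraries plus both transcripts, with Benjamini-Hochberg adjustment over all tested and a threshold of 0.05. The natural model held a mean for each site and depth, the experiment model a mean for each arm and time with a site term. edgeR 4.0.16 was an alternative, since on these data it had been found to call as many isogroups with reassigned labels. The code was tested on simulated data. Same-tag libraries come from the same colony, so colony was also fitted as a replicate block, with a consensus correlation of 0.0609. Intervals on shares of libraries are exact Clopper-Pearson ones. Limits for a count of 0 use 3 counts and, like single counts, cover counting error only. Reads without molecular identifiers are not independent molecules. Other alternatives were TMM and RLE scaling, prior count 0.5, no filter on isogroups, no minimum or 100000 host counts, the number of isogroups as covariate, leaving out the X-14 date or the experiment's colonies, barcode run as covariate, leaving out each library, and, added after seeing the data, thinning to 20000 counts and values within dates, undated titles, runs and isogroup ranges.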

Additional observations from a re-analysis of the deposited data

Results flagged for a closer look

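Each transcript was checked in every arm, site and time with 4 to 10 libraries, 14 checks in all, and 7 found a library far from the rest of its group by Dixon's criterion. That criterion flags about 1 in 20 groups by chance, and where the rest of a group is at 0 any single value stands out.

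For the photolyase-like transcript these were 97.0 CPM (42 counts) in an EFGB shallow control at time 6, with the other 4 libraries at 0. A WFGB shallow control at time 6 had 20.5 CPM and another at time 12 had 13.8 CPM, each from 1 count among libraries at 0.

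For NEIL1, an EFGB shallow control at time 12 had 357.4 CPM (64 counts), and the other 3 had 1.61, 7.27 and 10.3 CPM. A WFGB mesophotic control at time 6 had 69.4 CPM (48 counts) among libraries at 0. At time 12 a WFGB mesophotic control had 396.5 CPM from 10 counts in a library of 25221 host counts, and the next highest had 117.1 CPM. A WFGB shallow control at time 6 had 143.3 CPM from 3 counts in a library of 20931 host counts.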

How the results depend on the processing

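As a mean over the sites, both transcripts stayed lower in mesophotic natural colonies under every alternative tried. They were chosen for this direction in these libraries, so the alternatives describe the size of the difference and do not test it. The photolyase-like value lay between −0.51 (TMM) and −1.08 (at least 100000 host counts) in limma, and NEIL1 between −0.81 (TMM) and −1.40 (prior count 0.5). At WFGB alone edgeR gave 0.49 for NEIL1. The edgeR mean of −4.32 for the photolyase-like transcript depends on how the CBC mesophotic libraries, all at 0, are handled, and over the other 3 sites edgeR gave −3.49. Thinned to 20000 counts, the photolyase-like detection difference was −13.4 percentage points against −19.2. Neither transcript passed a limma test under any alternative. By edgeR the photolyase-like transcript passed for depth by site (F = 4.55), site (8.53) and arm and time (3.66), and NEIL1 for site (5.11). NEIL1 turned sign for EFGB minus WFGB with TMM (0.071), the isogroup covariate (0.15), edgeR (0.59) and without X-14 (0.52), as did the photolyase-like transcript with edgeR (0.03). It turned to 0.055 between controls at 100000 host counts or more, and NEIL1 to 0.17 for the change from untimed libraries with edgeR. The cause was not tested.

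Counts of called isogroups depended on the setting. For depth, TMM gave 21 (17 lower, 4 higher, against 33 and 3), no isogroup filter 22, at least 100000 host counts 8, the isogroup covariate 8, edgeR 1801 and omission of X-14 3. Depth by site gave 136, 157, 13, 27, 4040 and 16 in that order. Site gave 970 with at least 100000 host counts, 895 with the covariate and 3131 without X-14. EFGB minus WFGB gave 519 with TMM, 268 with at least 100000 host counts, 15 with the covariate, 845 without X-14 and 842 without the experiment's colonies. In the experiment at least 100000 host counts gave 55 between controls, 45 for transplants against mesophotic controls and 43 for arm and time. The same comparisons gave 356, 744 and 3173 with edgeR, which called 809 against shallow controls and 347 for the change from untimed. Prior count 0.5 gave 0 for transplants against mesophotic controls and 1 against shallow controls, where TMM gave 1 and the covariate 2. TMM moved the median of all isogroups by up to 0.26, at EFGB between depths. With at least 100000 host counts the change from untimed libraries could not be fitted.

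With colony as a replicate block the transplant difference from mesophotic controls was 0.55 for the photolyase-like transcript and 0.39 for NEIL1, and the block changed no call of either. Leaving out each experiment library in turn gave, for the photolyase-like transcript and NEIL1, −0.23 to 0.017 and −0.38 to 0.23 between controls. Transplants minus mesophotic controls ran from 0.26 to 0.67 and −0.059 to 0.64, and minus shallow controls from 0.16 to 0.60 and −0.22 to 0.50. The F for arm and time ran from 0.424 to 1.31 and 0.724 to 1.48, and the change from untimed from 0.56 to 1.06 and −0.93 to −0.24. Calls then numbered 0 to 1, 1 to 3, 0 to 3, 16 to 42 and 0 to 0. Over natural libraries the depth values ran from −0.62 to −0.54 and −1.07 to −0.95. Most values rest on libraries with few counts of either transcript, and the 95% intervals between transplants and mesophotic controls include 0 for both.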

Other observations

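The 13 libraries under 20000 host counts, which enter none of the fits, held 2 photolyase-like counts, both in CBC shallow replicate 10. NEIL1 was found in 8 of the 13, with at most 6 counts, in EFGB shallow replicate 20.

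The date codes of 2 EFGB transplant colonies, EFGB71 and EFGB74, stand apart. Their libraries at time 6 carry IX-16 and their untimed ones V-16, while the other libraries at time 6 carry V-16. EFGB71 had neither transcript in either library. EFGB74 had no photolyase-like count in either, and NEIL1 at 18.3 CPM untimed and 207.5 CPM at time 6, the highest value of the transplants at that time.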
